A study of Mus musculus with 6 samples.

Results

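The genes described are 56 genes of the cell cycle and DNA replication, taken from the deposited count table by their symbols. All 56 were found among its 35976 rows. They were divided by the stage in which they are best known to act: 30 G1/S genes, covering entry into the cycle and DNA synthesis, and 26 G2/M genes, covering mitosis. RNA was sequenced from interscapular brown adipose tissue (iBAT) of AKO mice, in which floxed Cars2 is deleted by Cre under the Adiponectin promoter, and of wild-type (WT) littermates, with 3 libraries in each group. Both groups had been kept at 4 °C for 4 h before the tissue was frozen, so that no library represents tissue from mice kept warm. Adiponectin-Cre acts in adipocytes, and the other cells of the tissue keep an intact Cars2 gene. The product of Cars2 charges mitochondrial tRNA with cysteine and also makes cysteine persulfide.

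The cell cycle is driven by cyclins, which activate cyclin-dependent kinases (CDKs). D-type cyclins with Cdk4 or Cdk6, and E-type cyclins with Cdk2, phosphorylate the pocket proteins Rb1, Rbl1 and Rbl2. This releases E2F transcription factors, which switch on the genes of DNA replication. Later, Ccna2, the B-type cyclins and Cdk1 drive mitosis, together with Foxm1 and Mybl2, transcription factors that switch on mitotic genes. Mature brown adipocytes have left the cycle, and dividing cells of adipose tissue include precursors, endothelial cells and immune cells. In RNA from whole tissue, more dividing cells and more RNA per dividing cell cannot be told apart.

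The libraries held 6540619 to 8461685 counts, and levels are given as CPM, counts scaled to a common library size with TMM factors, on which 1 count was worth 0.120 to 0.142. Of 22147 genes with a count, 13007 passed the filter on low counts and were tested with edgeR. A gene was called at an adjusted p under 0.05. Libraries are given in the order of replicates 1 to 3, and a change followed by ± or by an adjusted p is a log2 fold change of AKO over WT with its SE. Cars2 measured 220, 248 and 132 CPM in the AKO libraries, against 786, 459 and 632 CPM in WT, and fell by 1.64 on the log2 scale (SE 0.23, adjusted p = 0.000192). Mitochondrially encoded transcripts made up 23.0% to 28.6% of the counts in AKO libraries and 20.1% to 20.6% in WT.

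Calls among the cell cycle genes tested are given first, although the filter on low counts shapes them. Of the 56 genes, 49 passed the filter and were tested: 26 were higher in AKO, 4 were lower and 19 were not called. Among all 13007 genes tested, 20.2% were called higher and 17.5% lower. Every AKO library lay above every WT library for 36 of the 56 genes and below for 3, and the groups overlapped for 17. Among the 13007 genes tested, the shares above and below were 25.7% and 24.4%. The 36 genes include 6 of the 7 that failed the filter, whereas these shares cover tested genes only. Of the 31 tested members with a mean under 5 CPM, 21 were higher in AKO and the other 10 were not called, against 27.3% higher and 6.43% lower among all tested genes under that level. These counts depend on the filter, for which a gene needs 3 libraries at or above 1.25 CPM. Of the 49 tested genes, 26 passed without all 3 WT libraries above that level, 14 of them with none, and 18 of the 26 higher calls were among them. For a gene admitted only through its AKO libraries, the filter itself favours a higher level in AKO, so nothing is read from the counts over tested members. Of the 23 genes with every WT library above the level, 8 were higher and 4 lower, being 7 higher and 4 lower in G1/S and 1 higher in G2/M.

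Summed over the 26 G2/M genes, the level was 65.6, 57.5 and 73.7 CPM in the AKO libraries, against 23.5, 17.8 and 25 CPM in WT. The lowest AKO library was thus more than 2 times as high as the highest WT library. Summed over the 30 G1/S genes, it was 627, 557 and 546 CPM in AKO, against 540, 555 and 542 CPM in WT. Here the groups overlapped, in sums to which abundant genes add most. With each gene weighted equally, the G1/S mean of log2(CPM + 1) was 3.66, 3.47 and 3.50 in AKO, against 3.21, 3.13 and 3.21 in WT. By that measure the groups did not overlap. Within the G1/S group, the 9 licensing and fork genes summed to 117, 99.5 and 90.3 CPM in AKO, against 60.1, 59.7 and 64.6 CPM in WT, with no overlap. The 4 genes of deoxynucleotide synthesis summed to 34.7, 30.1 and 35.7 CPM in AKO, against 41.7, 42.3 and 43.7 CPM in WT. Rrm1 made up most of this sum, averaging 23.3 CPM in AKO and 36.7 CPM in WT. It alone of the 4 had a negative log2 fold change, and the other 3 were positive.

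**Figure D1:**
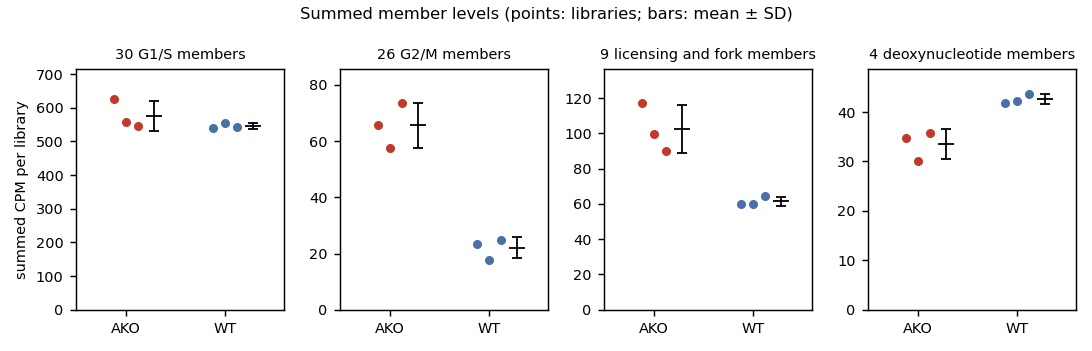
Summed CPM per library of the 30 G1/S genes, the 26 G2/M genes, the 9 licensing and fork genes and the 4 deoxynucleotide genes, in AKO and WT libraries; points are libraries and bars the mean with SD (n = 3). The G2/M sums lie at 57.5 to 73.7 CPM in AKO and 17.8 to 25 CPM in WT, whereas the G1/S sums overlap.

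Of the 30 G1/S genes, 29 were tested, and 13 were higher in AKO, 4 lower (Ccnd3, Cdkn2c, E2f2 and Rrm1) and 12 not called. The 4 lower calls became 2 without WT replicate 2 or without AKO replicate 3. The median log2 fold change of the 29 was 0.35. Of the 26 G2/M genes, 20 were tested, and 13 were higher, 0 lower and 7 not called, with a median of 1.91. The median over all genes tested was 0.01. No G2/M gene was lower in edgeR, DESeq2 or limma-voom, also at an unadjusted p under 0.05 (0 genes with each tool). These medians cover only genes that passed the filter. Of the 20 G2/M genes that passed, 18 did so without all 3 WT libraries above the filter's level, and 11 with no WT library above it. The calls in each direction and the medians are therefore a description only. With no filter on low counts, all 56 genes entered the fit, and 29 were called higher and 4 lower, the 29 being 12 G1/S and 17 G2/M genes.

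**Figure D2:**
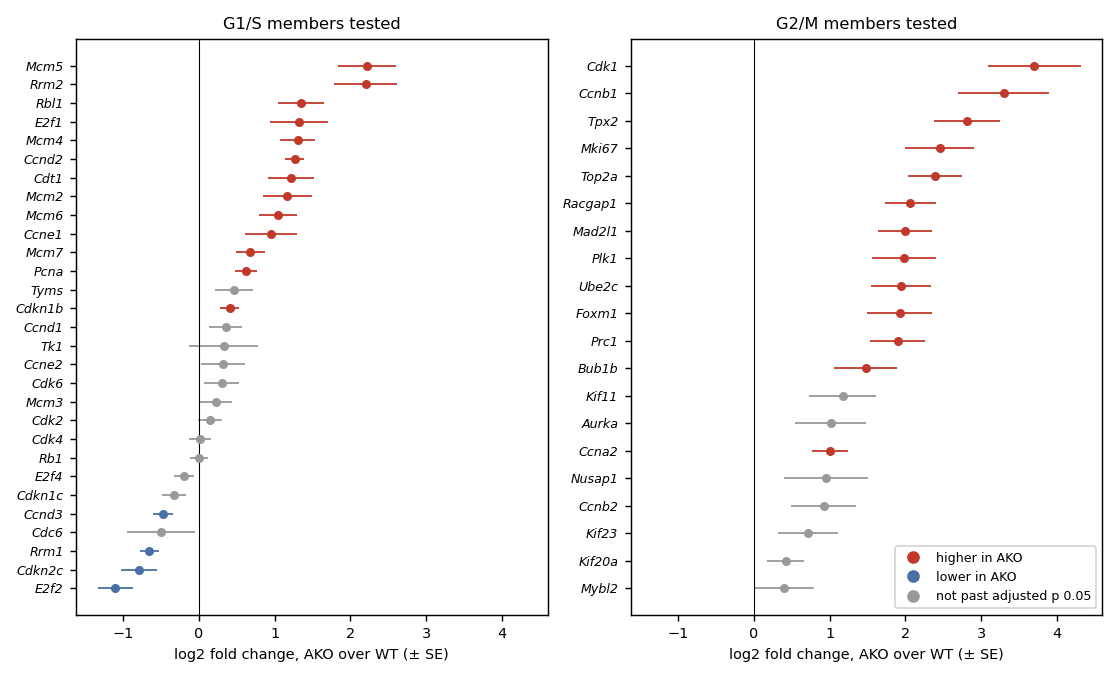
log2 fold change of AKO over WT with its SE for the 29 G1/S and 20 G2/M genes tested, ordered by size; red, higher in AKO; blue, lower in AKO; grey, not past the threshold. The G2/M genes all lie above 0, up to 3.70 for Cdk1, and the G1/S genes run between 2.21 for Mcm5 and -1.11 for E2f2.

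Entry into the cycle starts with the D-type cyclins, and here the 3 members of the family differed. Ccnd2 measured 76.1, 67.2 and 67.2 CPM in AKO, against 26.6, 30.2 and 30.9 CPM in WT. The groups were far apart, and it rose by 1.26 ± 0.13 (SE) on the log2 scale, 2.40-fold (adjusted p = 1.8e-05). Ccnd3 measured 78.4, 64.4 and 58.4 CPM in AKO, against 89.8, 103 and 87.0 CPM in WT. All AKO libraries were lower, and Ccnd3 fell by 0.47 ± 0.14 (adjusted p = 0.0164). That call was lost without WT replicate 2 (adjusted p = 0.0754) or AKO replicate 3 (adjusted p = 0.0703). Ccnd1 measured 35.3, 18.7 and 23.9 CPM in AKO, against 24.0, 17.8 and 19.3 CPM in WT. The groups overlapped, AKO replicate 1 being the highest library, and the log2 fold change of 0.35 ± 0.21 was not called (adjusted p = 0.214). Without AKO replicate 2 Ccnd1 was called, at 0.54 (adjusted p = 0.0459). The ratio of Ccnd2 to Ccnd3 CPM, a pair set side by side after the values were seen and not tested, was 1.06 ± 0.09 in AKO and 0.315 ± 0.035 in WT (SD, n = 3 each).

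Ccne1, the cyclin E that activates Cdk2 before S phase, measured 2.52, 2.67 and 2.56 CPM in AKO, against 0.839, 1.27 and 1.91 CPM in WT. The AKO libraries were higher, by 0.95 ± 0.35 (adjusted p = 0.0456). The call sat at the threshold and was lost in 8 of the 14 alternatives run, among them DESeq2 (adjusted p = 0.158) and leaving out WT replicate 1 (0.70, adjusted p = 0.182). The kinases themselves were not called. Cdk4 and Cdk6, the partners of D-type cyclins, had log2 fold changes of 0.02 and 0.30, and Cdk2 and the second E-type cyclin Ccne2 had 0.15 and 0.32. All 4 overlapped between the groups.

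The CDK inhibitors were split. Cdkn1b (p27), which binds cyclin-CDK complexes, measured 31.8, 33.5 and 30.9 CPM in AKO, against 25.7, 22.8 and 24.2 CPM in WT. The groups did not overlap, with a rise of 0.41 ± 0.13 (adjusted p = 0.0257), which was lost without WT replicate 2 (0.36, adjusted p = 0.109), WT replicate 3 (0.39, adjusted p = 0.087) or AKO replicate 2 (0.37, adjusted p = 0.0627), with DESeq2 (adjusted p = 0.0616) and with no filter on low counts (adjusted p = 0.0769). Cdkn2c (p18), which binds Cdk4 and Cdk6, measured 21.1, 39.8 and 20.8 CPM in AKO, against 36.0, 53.7 and 52.0 CPM in WT. AKO replicate 2 lay above WT replicate 1, and Cdkn2c fell by 0.79 ± 0.24 (adjusted p = 0.0185). It was not called without AKO replicate 1 (adjusted p = 0.0652), AKO replicate 3 (adjusted p = 0.0703), WT replicate 2 (adjusted p = 0.0722) or WT replicate 3 (adjusted p = 0.0596). Cdkn1c (p57), an imprinted inhibitor, measured 32.6, 24.8 and 25.5 CPM in AKO, against 40.7, 33.7 and 29.9 CPM in WT. The groups overlapped and the log2 fold change of -0.33 ± 0.16 was not called (adjusted p = 0.119), although without AKO replicate 1 it was -0.47 (adjusted p = 0.034).

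Members of the E2F family moved in both directions. E2f1, an activator of replication genes, measured 3.00, 1.91 and 2.14 CPM in AKO, against 1.20, 0.509 and 1.09 CPM in WT. It was higher in every AKO library, by 1.32 ± 0.39 (adjusted p = 0.0178), but not called without WT replicate 2 (1.02, adjusted p = 0.0908) or AKO replicate 1 (1.1, adjusted p = 0.0715), or with DESeq2 (adjusted p = 0.0682). E2f2, a second activator, measured 9.36, 4.70 and 6.55 CPM in AKO, against 14.6, 13.9 and 16.1 CPM in WT. All AKO libraries were lower, and E2f2 fell by 1.11 ± 0.23 (adjusted p = 0.00258). E2f4, which acts mostly as a repressor with pocket proteins in resting cells, had a log2 fold change of -0.20 and overlapped. E2f8, an atypical repressor E2F, was below the filter, with 8, 4 and 12 counts in AKO, against 0, 1 and 0 counts in WT. The ratio of its summed counts, scaled by library size, was 24.3, with a 95% exact binomial interval of 3.96 to 999 that covers counting error only.

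The pocket proteins differed likewise. Rbl1 (p107), itself an E2F target that rises in cycling cells, measured 4.20, 5.46 and 4.70 CPM in AKO, against 2.40, 1.15 and 2.05 CPM in WT. The groups did not overlap, and Rbl1 rose by 1.35 ± 0.31 (adjusted p = 0.00454). Rb1, the retinoblastoma protein, measured 55.9, 58.6 and 66.1 CPM in AKO, against 56, 60.7 and 63.8 CPM in WT. Its libraries were interleaved and its mean was 60.2 CPM in both groups.

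Of the 9 licensing and fork genes, 7 (77.8%) were higher in AKO and 2 were not called, against 20.2% higher among all genes tested. Of the 7, Mcm5 passed the filter with no WT library above its level and Mcm2 with 2. Mcm2 to Mcm7 form the ring-shaped helicase that unwinds DNA at the fork. Mcm5 measured 7.08, 4.07 and 3.13 CPM in AKO, against 1.08, 0.764 and 1.23 CPM in WT. The lowest AKO library was above the highest WT library, and the rise was 2.21 ± 0.39, 4.64-fold (adjusted p = 0.000798). Mcm4 measured 7.92, 6.10 and 7.12 CPM in AKO, against 2.88, 2.67 and 3.01 CPM in WT. The libraries of each group lay close together, with a rise of 1.3 ± 0.24 (adjusted p = 0.00102).

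The other helicase subunits rose less or were not called. Mcm2 rose by 1.17 (not called without WT replicate 3, 0.88, adjusted p = 0.0574), Mcm6 by 1.04 and Mcm7 by 0.68, each with no overlap between groups. Mcm7 was not called without WT replicate 2 (adjusted p = 0.0554) or WT replicate 3 (adjusted p = 0.0593). Mcm3 was at 9.36, 7.75 and 8.54 CPM in AKO, against 8.63, 5.60 and 7.79 CPM in WT, and its log2 fold change of 0.22 was not called (adjusted p = 0.448). The 6 subunits assemble in equal numbers, while their transcripts differed in level: per kilobase of annotated exon, they averaged 0.726 (Mcm2) to 3.39 (Mcm7) CPM in AKO and 0.257 (Mcm5) to 2.11 (Mcm7) CPM in WT.

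Pcna, the sliding clamp that holds DNA polymerase on its template, measured 53.6, 49.4 and 39.9 CPM in AKO, against 27.5, 30.8 and 34.6 CPM in WT. It was higher in every AKO library, by 0.63 ± 0.15, 1.54-fold (adjusted p = 0.00536). Cdt1, which loads the helicase, rose by 1.22 (adjusted p = 0.00761), with 3.36, 4.57 and 3.42 CPM in AKO and 1.32, 2.04 and 1.5 CPM in WT. Cdc6, its partner in loading, had 0.960, 1.78 and 0.427 CPM in AKO, against 1.80, 1.53 and 1.23 CPM in WT. Its groups overlapped and its log2 fold change of -0.51 was not called (adjusted p = 0.403).

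The enzyme that makes deoxynucleotides for replication, ribonucleotide reductase, is built of a large subunit, Rrm1, and a small subunit, Rrm2, which is made chiefly in S phase. The transcripts of its subunits went in opposite directions. Rrm2 measured 3.72, 1.91 and 3.99 CPM in AKO, against 0.600, 0.509 and 0.956 CPM in WT. All AKO libraries were higher, and Rrm2 rose by 2.20 ± 0.42, 4.6-fold (adjusted p = 0.00135). Rrm1 measured 23.4, 23.1 and 23.4 CPM in AKO, against 35.9, 37.1 and 37.2 CPM in WT. Libraries within a group differed by far less than the groups did, and Rrm1 fell by 0.66 ± 0.12 (adjusted p = 0.00137). Both calls held in all 14 alternatives. The ratio of Rrm2 to Rrm1 CPM, which was formed after the values were seen and not tested, was 0.137 ± 0.048 in AKO and 0.0187 ± 0.0062 in WT (SD, n = 3 each). Tyms, which makes thymidylate, measured 5.28, 4.19 and 6.26 CPM in AKO, against 3.48, 4.08 and 3.82 CPM in WT. The groups did not overlap, but its log2 fold change of 0.46 ± 0.25 was not called (adjusted p = 0.158). Tk1, thymidine kinase, had 0.33, was not called and overlapped.

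**Figure D3:**
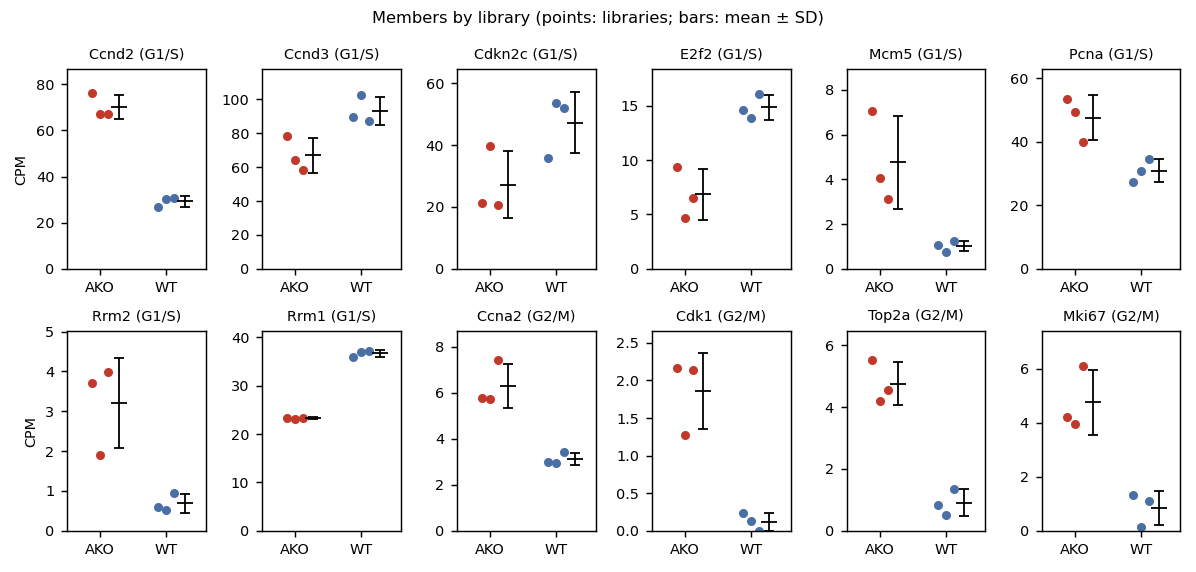
CPM by library of 12 cell cycle genes in AKO and WT; points are libraries and bars the mean with SD (n = 3), each panel with its own axis from 0. Ccnd3, E2f2 and Rrm1 lie lower in every AKO library, Cdkn2c is lower with an overlap, and the other 8 genes lie higher in every AKO library.

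Promoters are shown for the 3 G1/S and the 3 G2/M genes with the lowest p that the RefSeq promoter table holds, to show the elements known to time their expression. Windows run from 250 bases before to 50 bases after a transcription start, in build GRCm38.p6, and 44 of the 56 genes matched the table, 23 of G1/S and 21 of G2/M. The 3 kinds of element listed here were searched on both strands. E2F elements were TTTCCCGC, TTTGGCGC, TTTCGCGC or TTTGCCGC, the CHR (cell cycle genes homology region, bound by the MuvB complex) was TTTGAA, and the CCAAT box, bound by NF-Y, was CCAAT. Capitals mark the matches, and matches to different elements may overlap. The G1/S windows lie at chr8:75109259-75109558 (plus strand), chr12:24708004-24708303 (plus strand) and chr7:102441445-102441744 (plus strand).
Mcm5: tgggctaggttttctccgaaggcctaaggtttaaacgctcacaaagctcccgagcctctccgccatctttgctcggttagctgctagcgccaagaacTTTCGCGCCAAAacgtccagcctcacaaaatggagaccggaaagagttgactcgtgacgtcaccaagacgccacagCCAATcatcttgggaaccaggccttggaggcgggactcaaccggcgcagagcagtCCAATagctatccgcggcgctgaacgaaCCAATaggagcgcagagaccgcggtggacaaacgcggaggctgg
Rrm2: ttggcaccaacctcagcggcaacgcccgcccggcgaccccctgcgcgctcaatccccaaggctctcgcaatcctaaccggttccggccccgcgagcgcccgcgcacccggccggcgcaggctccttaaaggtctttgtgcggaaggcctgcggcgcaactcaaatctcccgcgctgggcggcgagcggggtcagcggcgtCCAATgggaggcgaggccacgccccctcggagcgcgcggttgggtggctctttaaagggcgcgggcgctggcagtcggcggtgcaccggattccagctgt
Rrm1: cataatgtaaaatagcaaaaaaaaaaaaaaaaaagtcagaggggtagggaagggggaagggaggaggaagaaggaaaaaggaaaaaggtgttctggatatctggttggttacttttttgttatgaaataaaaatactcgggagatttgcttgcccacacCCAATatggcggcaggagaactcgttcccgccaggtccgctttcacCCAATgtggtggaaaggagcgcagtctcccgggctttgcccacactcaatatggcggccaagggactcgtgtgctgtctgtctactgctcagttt
The Mcm5 window holds 2 E2F matches, which overlap each other on opposite strands, and 3 CCAAT boxes. The windows of Rrm2, which rose, and Rrm1, which fell, hold neither an E2F nor a CHR match in these letters, and 1 and 2 CCAAT boxes.

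The G2/M windows lie at chr11:99024140-99024439 (minus strand), chr15:99651607-99651906 (minus strand) and chr10:69352863-69353162 (minus strand). They are printed in the direction of transcription.
Top2a: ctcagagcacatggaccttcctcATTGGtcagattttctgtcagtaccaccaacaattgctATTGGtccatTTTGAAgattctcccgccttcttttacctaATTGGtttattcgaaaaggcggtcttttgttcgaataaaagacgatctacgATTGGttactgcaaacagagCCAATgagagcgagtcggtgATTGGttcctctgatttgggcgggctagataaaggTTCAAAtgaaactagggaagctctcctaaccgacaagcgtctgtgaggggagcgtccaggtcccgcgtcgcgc
Racgap1: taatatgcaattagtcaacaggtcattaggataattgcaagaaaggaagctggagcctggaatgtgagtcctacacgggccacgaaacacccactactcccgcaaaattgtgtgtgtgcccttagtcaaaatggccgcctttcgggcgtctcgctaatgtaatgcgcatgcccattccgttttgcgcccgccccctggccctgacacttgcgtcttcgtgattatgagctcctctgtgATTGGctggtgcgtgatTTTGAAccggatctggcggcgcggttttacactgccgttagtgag
Cdk1: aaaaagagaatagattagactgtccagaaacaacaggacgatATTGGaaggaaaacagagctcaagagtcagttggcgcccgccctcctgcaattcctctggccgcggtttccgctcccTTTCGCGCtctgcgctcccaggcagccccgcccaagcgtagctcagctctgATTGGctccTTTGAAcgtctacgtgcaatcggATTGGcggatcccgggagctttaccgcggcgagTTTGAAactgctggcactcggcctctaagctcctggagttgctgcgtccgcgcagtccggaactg
Each of these 3 windows holds both CHR and CCAAT matches: 2 and 6 for Top2a, 1 and 1 for Racgap1, and 2 and 3 for Cdk1, which also has 1 E2F match. Over all members in the table, a CHR match was present in 14 of 21 G2/M genes (66.7%) and 3 of 23 G1/S genes (13.0%), against 20.2% of all 27025 genes with a window. All 14 G2/M genes with a CHR also had a CCAAT box, a combination found in 8.97% of all genes. E2F matches were present in 1 of 21 G2/M genes (4.76%) and 9 of 23 G1/S genes (39.1%), against 2.6% of all genes, and CCAAT boxes in 81.0% and 60.9%, against 41.1%. By call, a CHR was found in 8 of 10 G2/M genes called higher and in 4 of 6 not called. An E2F element was found in 5 of 11 G1/S genes called higher, 1 of 4 called lower and 3 of 7 not called. The CCAAT box was found in 7 of 11 G1/S genes called higher, 4 of 4 called lower and 2 of 7 not called. Among G2/M genes it was found in 9 of 10 called higher and 4 of 6 not called. Such shares rest on few genes, and differences between them were not tested. A match is a description of the sequence and shows neither binding nor use.

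**Figure D4:**
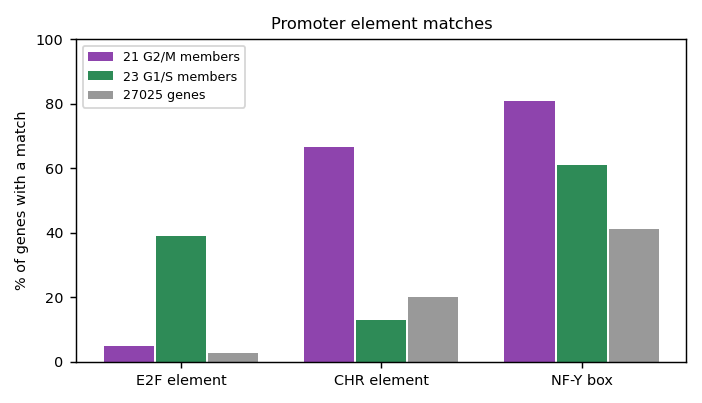
Share of genes (%) with at least 1 match to the E2F element, the CHR or the CCAAT box (the NF-Y box) in the 300 bases around the transcription start, for 21 G2/M genes, 23 G1/S genes and all 27025 genes with a window. CHR matches are most frequent in G2/M genes (66.7%) and E2F matches in G1/S genes (39.1%).

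Among the mitotic cyclins and kinases, Ccna2, which acts in S phase and at the entry into mitosis, measured 5.76, 5.72 and 7.40 CPM in AKO, against 3.00, 2.93 and 3.42 CPM in WT. It was 1 of only 2 G2/M genes with all WT libraries above the filter's level, and it rose by 1.01 ± 0.24, 2.01-fold (adjusted p = 0.00568). The other was Kif20a, which overlapped between the groups and was not called (0.42, adjusted p = 0.193). Ccnb1, the cyclin that starts mitosis, had 12, 15 and 15 counts in AKO, against 3, 0 and 1 counts in WT. Cdk1, its kinase, had 18, 10 and 15 counts in AKO, against 2, 1 and 0 counts in WT. For both, the WT libraries were near the limit of detection. Ccnb1 rose by 3.30 ± 0.60 (adjusted p = 0.00106) and Cdk1 by 3.70 ± 0.61 (adjusted p = 0.00058). The sizes are imprecise: the scaled ratio of summed counts was 10.6 for Ccnb1 (95% interval 3.86 to 40.8) and 14.5 for Cdk1 (4.64 to 73.1), and without WT replicate 1 the log2 fold changes were 4.48 and 4.51.

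Foxm1, a transcription factor of mitotic genes, measured 2.28, 1.78 and 2.42 CPM in AKO, against 0.240, 0.637 and 0.820 CPM in WT. The groups did not overlap, and it rose by 1.93 ± 0.43 (adjusted p = 0.0039). Mybl2 (B-Myb), which acts with the MuvB complex, had a log2 fold change of 0.41, overlapped and was not called. Ccnb2 had 0.92 and did not overlap, and was not called (adjusted p = 0.111).

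Plk1, a kinase of spindle assembly and cytokinesis, measured 2.16, 2.16 and 1.85 CPM in AKO, against 0.240, 0.764 and 0.546 CPM in WT. It rose by 1.98 ± 0.42 (adjusted p = 0.00309). Aurka, the centrosomal Aurora kinase, measured 2.04, 0.889 and 2.28 CPM in AKO, against 1.32, 0.637 and 0.546 CPM in WT. AKO replicate 2 lay below WT replicate 1, and the log2 fold change of 1.01 ± 0.47 was not called (adjusted p = 0.107), but was without AKO replicate 2 (1.33, adjusted p = 0.0412). Aurkb and Birc5 (survivin), partners in the chromosomal passenger complex, did not pass the filter. Aurkb had 15, 7 and 11 counts in AKO, against 4, 2 and 0 in WT, and Birc5 had 20, 9 and 11 counts in AKO, against 5, 3 and 1 in WT.

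The spindle checkpoint delays anaphase until chromosomes are attached. Mad2l1, a checkpoint protein that binds Cdc20, measured 3.36, 4.19 and 4.41 CPM in AKO, against 0.600, 0.891 and 1.5 CPM in WT. The groups were well apart, with a rise of 2.00 ± 0.35 (adjusted p = 0.000906). Bub1b (BubR1), a further checkpoint protein, measured 2.52, 1.52 and 2.42 CPM in AKO, against 1.08, 0.382 and 0.820 CPM in WT. It rose by 1.47 ± 0.42 (adjusted p = 0.0147), a call lost without WT replicate 2 (1.15, adjusted p = 0.0774) and, at the threshold, without AKO replicate 1 (1.34), and with DESeq2 (adjusted p = 0.0542). Ube2c, the ubiquitin-conjugating enzyme of the anaphase-promoting complex, measured 3.36, 2.29 and 3.27 CPM in AKO, against 1.20, 0.509 and 0.546 CPM in WT. All AKO libraries were higher, by 1.94 ± 0.39 (adjusted p = 0.00214). Its exons share 592 bases, 22.8% of their length, with the opposite strand of Tnnc2, a troponin of fast skeletal muscle that averaged 90.4 CPM in AKO and 15.8 CPM in WT. Whether strand was used in counting is not stated in the labels or methods, and the part of Tnnc2 reads in the Ube2c value was not tested.

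Cdc20, which activates the anaphase-promoting complex, and the checkpoint kinase Bub1 did not pass the filter. Cdc20 had 25, 9 and 14 counts in AKO, against 7, 6 and 1 in WT. Bub1 had 6, 2 and 5 counts in AKO, against 0, 1 and 1 in WT, a scaled ratio of 6.58 (95% interval 1.49 to 60.1).

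Top2a, the topoisomerase that disentangles chromosomes, and Mki67 (Ki-67), a protein of the chromosome surface used to mark cycling cells, were both several times higher. Top2a measured 5.52, 4.19 and 4.56 CPM in AKO, against 0.839, 0.509 and 1.37 CPM in WT. The lowest AKO library was more than 3 times the highest WT library, and the rise was 2.39 ± 0.35, 5.24-fold (adjusted p = 0.000251). Mki67 measured 4.20, 3.94 and 6.12 CPM in AKO, against 1.32, 0.127 and 1.09 CPM in WT. WT replicate 2 held 1 count of it, and the rise was 2.45 ± 0.46, 5.48-fold (adjusted p = 0.00124). The kinetochore proteins Cenpe and Cenpf did not pass the filter. Cenpe had 7, 6 and 9 counts in AKO, against 4, 0 and 2 in WT. Cenpf had 1, 5 and 7 counts in AKO, against 2, 0 and 1 in WT, so that it overlapped, with a scaled ratio of 4.39 (95% interval 1.21 to 24.0).

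Of 7 genes of the spindle and cytokinesis, 3 (42.9%) were called higher, against 20.2% of all genes tested. These 3 passed the filter with no WT library above its level, so their number is a description only. Tpx2, which nucleates spindle microtubules and activates Aurka, measured 3.96, 2.54 and 4.56 CPM in AKO, against 0.839, 0.255 and 0.410 CPM in WT. It rose by 2.81 ± 0.43, 7.03-fold (adjusted p = 0.000355), and by 3.42 without WT replicate 1. Racgap1, of the centralspindlin complex, measured 4.08, 2.80 and 3.42 CPM in AKO, against 0.720, 0.764 and 0.956 CPM in WT. The groups were well separated, with a rise of 2.06 ± 0.34 (adjusted p = 0.000545). Prc1, which bundles microtubules of the central spindle, measured 3.36, 2.41 and 3.42 CPM in AKO, against 0.959, 0.509 and 0.956 CPM in WT, and rose by 1.90 ± 0.36 (adjusted p = 0.00143). The other 4 were positive and not called: the kinesins Kif11 (1.17, adjusted p = 0.0519), Kif23 (0.72, adjusted p = 0.17) and Kif20a (0.42, adjusted p = 0.193), and Nusap1 (0.95, adjusted p = 0.198), a microtubule-binding protein. Kif11 was called without WT replicate 1 (1.71, adjusted p = 0.0326) and Nusap1 without AKO replicate 1 (1.39, adjusted p = 0.0421). Kif20a exons share 29.3% of their length with the opposite strand of Cdc23.

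Levels set how firmly these values can be read. The median count per library was 15.5 in AKO and 5 in WT over the G2/M genes, and 65.5 in AKO and 59 in WT over the G1/S genes. Per kilobase of annotated exon, mean levels in AKO ran from 0.0378 (Cenpf) to 1.54 CPM (Ccna2) among G2/M genes and from 0.195 (E2f8) to 19.9 CPM (Pcna) among G1/S genes. All 7 genes that failed the filter had 25 counts or fewer in every library, and in 6 of them every AKO library lay above every WT library. Ccnb1, Ccnb2, Ccnd3, Pcna and Tyms have pseudogenes named after them in the annotation, and exons of 12 members overlap another tested gene. The labels and methods do not say how shared reads were counted, so these values are less certain.

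**Figure D5:**
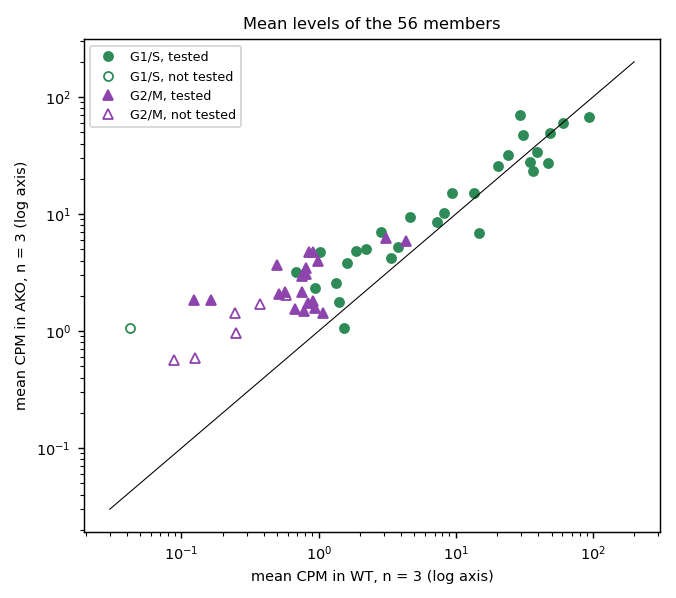
Mean CPM of the 56 genes in AKO (vertical) and WT (horizontal), n = 3 each, on log axes; green circles, G1/S; purple triangles, G2/M; open symbols, the 7 genes that did not pass the filter; the line marks equal levels. All 26 G2/M genes lie above the line and below 10 CPM, whereas G1/S genes lie on both sides.

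Other genes of the same pathways were read from the same fit. Of 48 other replication genes, 42 were tested, and 16 (38.1%) were higher and 1 (2.38%) lower in AKO. The lowest p were those of Rfc3, a subunit of the clamp loader (2.36 ± 0.35, adjusted p = 0.000289), Timeless, which protects the fork (1.39 ± 0.23, adjusted p = 0.000527), and Pold2, of DNA polymerase delta (0.95 ± 0.17, adjusted p = 0.00113), and the lower gene was Pole4 (-0.37). Of 67 other mitotic genes, 30 were tested, and 17 (56.7%) were higher and 3 (10%) lower. Among all genes tested, 20.2% were higher and 17.5% lower. Some genes of these lists passed the filter only through their AKO libraries, among them Spag5, with 6 counts summed over the WT libraries. The shares of both lists are therefore a description only. Spag5, a spindle protein (3.81 ± 0.46, adjusted p = 6.65e-05), Anln, an actin-binding protein of the cleavage furrow (2.97 ± 0.35, adjusted p = 5.57e-05), and Smc4, of condensin (1.34 ± 0.21, adjusted p = 0.000444), had the lowest p. The 3 lower genes were Zwint (-0.58), Cdc25a (-0.98) and Fam64a (-1.06), named after their values were seen.

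Calls among regulators outside the 56 genes are given as shares, to be read against the 20.2% higher and 17.5% lower among all genes tested. Of 17 other E2F, pocket, MuvB and CDK inhibitor genes, 15 were tested, and 4 (26.7%) were higher and 1 (6.67%) lower. E2f3 (1.01) and E2f7 (1.22), E2F family members, were higher, and E2f6 (-0.59), a repressor, was lower. Cdkn1a (p21), the CDK inhibitor induced by p53, named here after its values were seen, measured 390, 599 and 414 CPM in AKO, against 540, 492 and 428 CPM in WT. Its libraries overlapped, and its log2 fold change of -0.06 was not called (adjusted p = 0.814). Of 26 other cyclins and CDKs, most of which act in transcription or outside the cycle, 24 were tested, and 2 (8.33%) were higher and 5 (20.8%) lower, including Cdk17 (-0.59), Cdk8 (-0.54) and Ccnc (-0.52), the cyclin partner of Cdk8.

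Growth control genes of the series are given for comparison. Of 13 genes of the MYC, MAX and MXD network, 12 were tested, and 3 (25%) were higher and 2 (16.7%) lower, with a median of 0.06, close to the shares and the median of all genes tested. Myc, a transcription factor that drives growth and cycle entry, averaged 82.0 CPM in AKO and 4.50 CPM in WT (4.17 ± 0.23, adjusted p = 5.09e-07), and Mlx fell by 1.05. Of 21 GADD45 and p53-target growth arrest genes, 19 were tested, and 9 (47.4%) were higher and 10 not called, with a median of 0.49. Among all genes tested, 20.2% were higher. Gadd45a (4.22) and Gadd45b (2.12), stress-induced genes, had the lowest p. Differences between these lists and the cell cycle genes were not tested.

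Markers of several cell types also differed between the groups. Their calls, here and in the next paragraph, are to be read against 20.2% higher and 17.5% lower among all genes tested. Of 16 macrophage markers tested, 15 were higher in AKO, their sum being 1183 to 1637 CPM in AKO and 271 to 351 CPM in WT. Of 11 fibroblast and progenitor markers, 8 were higher, with sums of 1343 to 1649 CPM in AKO and 562 to 784 CPM in WT. Of 14 brown adipocyte markers, 10 were lower and 1, Pparg, was higher, with sums of 12766 to 19476 CPM in AKO and 30472 to 33528 CPM in WT. Plin1 (-0.37), Ebf2 (-0.04) and Lipe (0.11) were not called. Most of these sums came from Ucp1, averaging 4654 CPM in AKO and 14912 CPM in WT, and Fabp4, averaging 6591 CPM in AKO and 9240 CPM in WT. All 10 skeletal muscle markers tested of 12 were higher, with sums of 769 to 1655 CPM in AKO and 53.9 to 360 CPM in WT. The muscle precursor markers Pax7 and Myod1 were close to 0, at 1 and 6 counts over the 3 AKO libraries and 0 and 1 over the 3 WT libraries. WT replicate 2, which had the least muscle signal, also had the lowest G2/M sum. Among the AKO libraries it was the reverse: replicate 2 had the most muscle signal (1655 CPM) and the lowest G2/M sum (57.5 CPM). Without WT replicate 2, 24 members were called higher in AKO, 9 of G1/S and 15 of G2/M.

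Of 9 endothelial markers, 2 (22.2%) were higher and 2 (22.2%) lower, near the shares of all genes tested. Their sums were 991 to 1016 CPM in AKO and 985 to 1070 CPM in WT. Of the T and NK cell markers 2 of 14 were tested and of the B and plasma cell markers 1 of 8, and these 3 were higher. These genes, Cd2, Cd4 and Jchain, passed the filter without every WT library above its level, so their calls are a description only. T and NK cell markers summed to 9.78 to 20.1 CPM in AKO and 2.55 to 8.15 CPM in WT, and B and plasma cell markers to 6.12 to 16.5 CPM in AKO and 1.4 to 3.69 CPM in WT. Gene by gene, the groups overlapped for 9 of 13 T and NK cell markers and 6 of 7 B and plasma cell markers with counts. Of the latter only Jchain did not overlap, at 4.80, 4.32 and 3.27 CPM in AKO, against 1.44, 0.127 and 0.273 CPM in WT. The B and plasma cell sum of 16.5 CPM was that of AKO replicate 3. The neutrophil marker Ly6g was at 0 in every library, and Klf1, a transcription factor of erythroid precursors, had 3 counts over the AKO libraries and 2 over the WT libraries. Of the tested markers, 3 of 4 of dendritic cells, 2 of 5 of erythroid cells and 1 of 8 of mural cells were higher, 2 of 8 of Schwann cells and nerve were lower, and the 2 of neutrophils were not called. The higher dendritic cell genes, Clec9a, Itgax and Ccr7, likewise passed without every WT library above the filter's level. The part of any of these cell types in the levels of the cell cycle genes was not tested.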

How the data were processed

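The authors deposited whole-number counts per gene for the 6 libraries, and no column was left unused. Sources on how they were made differ: STAR, HTSeq and DESeq2 in the study's methods, but Bowtie2, RSEM (1.3.1), DESeq2 (1.4.5) and the mm10 build, with no roles, in the submitters' notes. Annotation release and strand use are not stated in either. Symbols were matched exactly. AKO was compared with WT in edgeR 4.0.16 on R 4.3.3 (filterByExpr by group with a minimum count of 10, TMM, glmQLFit and glmQLFTest with genotype as the only term), and p-values were adjusted by Benjamini-Hochberg over all 13007 genes tested. SEs are the absolute log2 fold change over the root of F. Adjusted p under 0.05 was called. Fold changes of genes with few WT counts depend on edgeR's prior count of 0.125. Replicate libraries differed beyond counting noise (chi-square per degree of freedom 5.45 to 19.3) and were kept apart. The study gives 3 AKO mice and 3 controls for these 6 libraries, which corresponds to 1 mouse per library. Intervals of count ratios are exact binomial (95%) and cover counting error only. Read counts without molecular identifiers are not independent molecules.

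The members, their roles, and the pathway, compared and marker lists were chosen with earlier results of these data known. Full values are given for the 3 tested members with the lowest p in each role, for Mki67, Top2a, Ccnd1 and Ccna2, and for members called against the majority of their phase; others are given by count, range or fold change, except that the library values of Rb1, Mcm3, Cdt1 and Cdc6 were added after they were seen. Per pathway list the 3 genes with the lowest p are named, and 2 per compared list. Alternatives were other scalings and tools (DESeq2 1.42.0, limma-voom 3.58.1), other filters, a replicate block and leaving out each library. The edgeR step was tested on simulated counts of 13007 genes for AKO over WT, where it recovered 50 of 50 genes raised by a log2 of 2 and 34 of 50 raised by a log2 of 1, with 15 unchanged genes called. Of genes lowered by a log2 of 2 it recovered 49 of 50, and of those lowered by a log2 of 1, 30 of 50. The changed genes were drawn at random from all levels, so recovery at the low counts of many members was not measured. Promoters are from RefSeq (GRCm38.p6), and exon lengths and overlaps from GENCODE on GRCm38.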

Additional observations from a re-analysis of the deposited data

How the results depend on the processing

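Of 30 called members, 22 kept their call and direction in every one of the 14 alternatives run, 8 lost it in at least 1 and 5 uncalled members gained one. No called member changed sign. The lost calls were those of Ccne1, Cdkn1b, Cdkn2c, Bub1b, E2f1, Ccnd3, Mcm7 and Mcm2, and the gained ones those of Ccnd1, Cdkn1c, Aurka, Kif11 and Nusap1. Signs changed for 3 uncalled members: Rb1, which was 0.00 (0.06 with upper-quartile scaling, 0.10 with library totals only, 0.00 keeping genes that average 1 CPM or more, and -0.07 to 0.05 leaving out 1 library), Cdk4 (-0.02 without a low-count filter, -0.09 without WT replicate 3, -0.08 without AKO replicate 1, and up to 0.12 leaving out 1 library) and Tk1 (-0.03 without WT replicate 2, and up to 0.65 leaving out 1 library). The number of members called higher was 22 with DESeq2, 27 with limma-voom and 24 to 29 leaving out 1 library, and the number lower was 2 to 4 leaving out 1 library, likewise for G1/S alone. The median log2 fold change of G1/S members was 0.44 with library totals only and 0.26 to 0.54 leaving out 1 library, and that of G2/M members 1.76 to 2.04 leaving out 1 library. With library totals only, the median of all genes was 0.10 and 65.2% of calls over all genes were higher, against 53.6% with TMM, while 27 members were higher and 4 lower, and the G1/S members in WT averaged a sum of 527 CPM in place of 546. Deviations of same-numbered libraries correlated at -0.02, 0.01 and 0.18, so the numbers were not taken to pair samples; with a replicate block 26 members were higher and 4 lower, as without it. Depth limits the G2/M genes most, with a median of 5 counts per WT library.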
